A study of Saccharomyces cerevisiae with 10 samples.

Results

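Budding yeast carries most genes of its small ribosomal subunit proteins in 2 copies, named A and B, and the strains described here each lack 1 such copy. Members are all genes whose symbol is RPS, digits and then A or B, so mitochondrial small-subunit genes (MRPS) are not among them. They number 46 of the 5325 genes named on the array, and 22 proteins have both copies measured. RPS8A and RPS26B are measured without their partners, and 2 of the 48 such genes of the reference table, RPS8B and RPS26A, have no named spot here.

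The pool held 5896 heterozygous diploid knockout strains of Saccharomyces cerevisiae, which were sporulated, and haploid MATa cells were selected at 30 °C on magic medium, which lets only such haploids grow. Benomyl, which takes microtubules apart by binding tubulin, was added to the medium of 1 pool of each pair. The short DNA tags (uptag and downtag) that mark each strain were amplified from the genomic DNA of 2 pools and hybridised together to 1 TagArray, with the pool without drug in Cy5 and the pool with drug in Cy3. There were 10 arrays, 1 each at 0, 1, 5, 10, 15, 20, 25, 30, 35 and 40 µg/ml benomyl, with both dyes of the 0 µg/ml array from a pool without drug. The cells were kept on the medium for 2 days on the arrays up to 10 µg/ml, for 3 days on the 15 µg/ml array and for 4 days on the others, so that dose and days cannot be told apart over the whole range.

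The small subunit, or 40S subunit, binds the mRNA and holds the decoding site. Its proteins sit on the 18S rRNA in a head, a body and a platform, and most of them are needed to cut and fold that rRNA as well as to translate. Where both copies of a gene encode almost the same protein, a strain that lacks 1 copy usually lives on the other, and how far it suffers depends on how much of the protein each copy supplies. Loss of a copy commonly slows growth and lowers the number of small subunits in yeast.

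Each value below is a log2 ratio of tag signals for the deletion strain of the named gene, relative to the median of its array, with all spots of the gene averaged. Cy5 over Cy3, and thus drug-free over benomyl pool, is the likely direction of the ratio from the dyes in the labels, and every sign would turn if it ran the other way. A negative value then means that the strain was more abundant among cells grown with benomyl than among those grown without, relative to the median strain, and the ratio does not show which of the pools changed. No dose was repeated, so p-values rest on how single arrays scatter around each fit, which may be technical, and precision is limited by having 10 arrays. On 9 arrays nearly all ratios were whole hundredths (within 0.01 of a hundredth), while only 3.59% were at 10 µg/ml, so the values of that array were not rounded like the rest. Spots of the members at or below a ratio of 0.02 numbered 2 at 10 µg/ml, 1 each at 1, 30, 35 and 40 µg/ml, and 0 on the other 5 arrays. The SD over all strains was 0.51 and 0.56 at 0 and 1 µg/ml, 0.89 and 0.86 at 5 and 10 µg/ml, 0.72 and 0.73 at 15 and 20 µg/ml, and 1.01, 1.14, 1.29 and 1.46 on the later arrays, and the lowest correlation between any pair of arrays over named spots was 0.0249.

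The small-subunit paralog strains left the centre of the pool between 1 and 5 µg/ml benomyl, both selected for 2 days. Their median was -0.07 without drug and -0.03 at 1 µg/ml. It was -1.70 at 5 µg/ml, which is 3.25-fold below the array median, and 43 of the 46 strains were lower at 5 than at 1 µg/ml. The next 3 doses had medians of -1.10, -1.12 and -1.22, and 6 strains were lower at 10 than at 5 µg/ml. From 25 µg/ml on the medians were -1.56, -1.93, -2.16 and -1.88, and 39 strains were lower at 30 than at 25 µg/ml. The share of all strains that were lower between these arrays was not counted. The median of all strains was 0.00 at 1, 0.04 at 5, 0.00 at 10, 0.02 at 25 and 0.01 at 30 µg/ml.

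At 5 µg/ml 34 of the 46 strains lay at least 2-fold below the array median, where 12.1% of all strains did. Without drug there were 2, RPS18B and RPS14A, against 3.83% of all strains, and at 1 µg/ml 4, against 3.55%. The counts were 24 at 10, 28 at 15, 29 at 20 and 31 at 25 µg/ml, against 12.7, 7.46, 7.1 and 9.88% of all strains. At 30, 35 and 40 µg/ml they were 34, 40 and 35, against 12.5, 14.3 and 18.1%. On none of the 10 arrays was a small-subunit paralog strain 2-fold above the median, where 2.42, 3.91, 6.29, 5.37, 4.3, 5.71, 10.6, 11.1, 14.8 and 19.3% of all strains were in order of dose. In rank, which does not depend on the spread of an array, the median member was at the 40.0 percentile of all strains without drug and at the 46.4 percentile at 1 µg/ml. It was at the 5.25 percentile at 5 µg/ml, the 11.4 percentile at 10 µg/ml, and between the 4.84 and 7.24 percentiles on the arrays from 15 to 40 µg/ml.

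**Figure D1:**
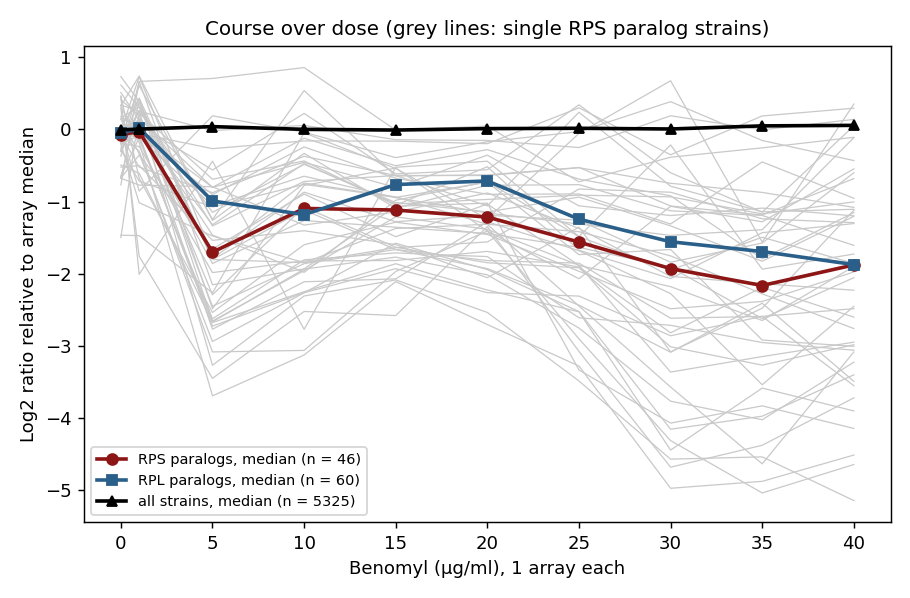
Log2 ratio relative to the array median against benomyl dose in µg/ml, 1 array per dose, with each of the 46 small-subunit paralog strains as a grey line and the medians of these strains, of 60 large-subunit paralog strains and of all 5325 strains as marked lines. The small-subunit median falls from -0.03 at 1 µg/ml to -1.70 at 5 µg/ml and reaches -2.16 at 35 µg/ml, while the median of all strains stays near 0.

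A straight line against dose was fitted to all 5325 strains with limma, and its slope is expressed as the log2 change that the line gives over 40 µg/ml, with the standard error (SE) over 10 arrays. Of the 46 strains 24 fell at an adjusted p below 0.05 and 0 rose, where 9.13% of all strains fell and 10.3% rose. Unadjusted, 31 had a negative and 1 a positive change with p below 0.05, against 775 and 1000 of all 5325 strains. The median fitted change was -1.55, against 0.09 over all strains. Of the 46 changes 43 were negative, against 2444 of 5325 over all strains. Copies A and B both took part, with 15 of 23 A strains and 9 of 23 B strains falling. Ratios as deposited, not centred, gave 21 falls and 0 rises, with 7.12% of all strains falling and 16% rising. Without the 1 µg/ml array 14 strains fell, where 6.03% of all strains did, and all 14 were among the 24. With arrays scaled to equal spread, or after quantile normalization, 1 of the 46, RPS21B, fell, a share near the 2.12 and 2.7% of all strains that did, and the median was -0.82 and -0.93.

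**Figure D2:**
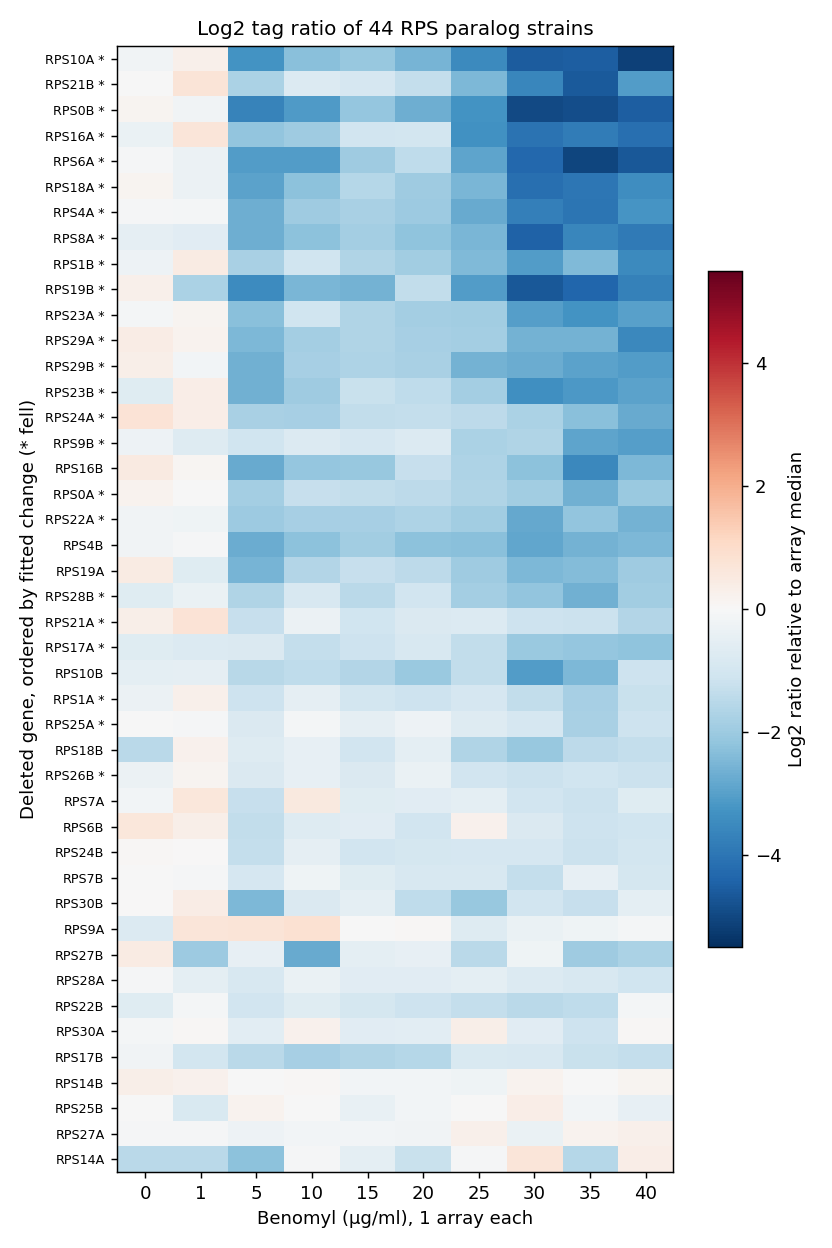
Log2 ratio relative to the array median (colour, blue below and red above) of 44 small-subunit paralog strains (rows, ordered by fitted change, with an asterisk on the 24 that fell in limma) at each benomyl dose in µg/ml (columns, 1 array each). Rows from RPS10A, with a fitted change of -4.51, to RPS24A, at -2.39, are blue from 5 µg/ml on, and the lowest rows, RPS14B to RPS14A, are pale or mixed.

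RPS10A (YOR293W) encodes a protein of the head, and its strain had the most negative fitted change. It was at -0.19, 0.26, -3.27, -2.31, -2.09, -2.54, -3.49, -4.57, -4.54 and -5.15 from 0 to 40 µg/ml, in order of dose. The 8 arrays at 5 µg/ml and above all lie below the 2 arrays of lower dose, and the last value rests in part on a spot at a ratio of 0.02 or below, where ratios written in hundredths are coarse, so no exact fold is given. The fitted change was -4.51 ± 0.72 (SE, n = 10 arrays; limma adjusted p = 0.00198). RPS16A (YMR143W), whose protein reaches from the head towards the tRNA in the peptidyl site, was at -0.37, 0.66, -2.15, -1.93, -1.07, -1.02, -3.34, -4.07, -3.83 and -4.15. Its low and high doses do not overlap either, and the values at 15 and 20 µg/ml are the least negative of the later 8. The change was -4.09 ± 0.73 (limma adjusted p = 0.00344).

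RPS0B (YLR048W) and RPS21B (YJL136C) encode neighbours in the body that act together in the last cut of 18S rRNA. RPS0B was at 0.14, -0.18, -3.69, -3.13, -2.11, -2.71, -3.28, -4.98, -4.88 and -4.51. It was the lowest of all members at 5, 10, 20 and 30 µg/ml, and its fitted change was -4.11 ± 0.89 (limma adjusted p = 0.00824). RPS21B was at -0.02, 0.73, -1.75, -0.74, -0.94, -1.32, -2.45, -3.57, -4.64 and -3.09. Its values from 25 µg/ml on are all lower than those before. The change of RPS21B was -4.12 ± 0.68 (limma adjusted p = 0.00245).

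RPS6A (YPL090C) encodes a body protein whose tail is phosphorylated downstream of the growth regulator TORC1. Its strain was at -0.06, -0.30, -3.08, -3.06, -1.97, -1.41, -2.90, -4.31, -5.04 and -4.65. The ratio was thus low at 5 and 10 µg/ml, less so at 15 and 20 µg/ml, and lowest at 35 µg/ml, where 1 of its spots was at a ratio of 0.02 or below, with a fitted change of -4.02 ± 0.84 (limma adjusted p = 0.00725). RPS18A (YDR450W), of a head protein that touches the large subunit, was at 0.15, -0.34, -2.94, -2.27, -1.58, -1.94, -2.52, -4.16, -3.98 and -3.40. It had the same shape as RPS6A, with a first low point at 5 µg/ml and a second from 30 µg/ml, and its change was -3.23 ± 0.74 (limma adjusted p = 0.011).

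The other 18 strains that fell had changes between -3.23 and -1.04. Among genes of body proteins, RPS4A was at -3.23 ± 0.64 and RPS8A at -3.12 ± 0.59, and the decoding-site protein genes RPS23A, RPS23B and RPS9B were at -2.84 ± 0.54, -2.49 ± 0.70 and -2.36 ± 0.40. RPS24A was at -2.39 ± 0.61 and RPS22A at -1.97 ± 0.48. Of proteins near the exit of the mRNA, RPS1B was at -3.05 ± 0.49, RPS1A at -1.29 ± 0.37, RPS28B at -1.65 ± 0.40 and RPS26B at -1.04 ± 0.30. RPS0A and RPS21A, the partners of the strains above, were at -1.98 ± 0.48 and -1.57 ± 0.46. The call of RPS21A was lost on leaving out any of 6 arrays in turn, and that of RPS0A on leaving out any of 2.

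In the head, RPS19B, whose protein is needed to mature 18S rRNA, fell by 2.99 ± 0.90, the zinc-binding protein genes RPS29A and RPS29B had changes of -2.79 ± 0.64 and -2.62 ± 0.62, and RPS17A and RPS25A were at -1.54 ± 0.28 and -1.27 ± 0.35. Counted by place, 9 of 16 strains of head proteins fell and 15 of 30 of body and platform proteins, where 9.13% of all strains did. The medians were -1.66 and -1.32, and the difference between these groups was not tested. At 10 µg/ml the head strains had a median of -1.70 and the body and platform strains -0.77, while at 20 µg/ml they were at -1.31 and -1.17.

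Several strains stayed near the median at every dose. RPS14B (YJL191W), of a platform protein that represses this copy's own expression, was at 0.34, 0.25, -0.02, 0.06, -0.14, -0.15, -0.25, 0.19, -0.01 and 0.14. RPS27A (YKL156W), of a zinc-binding protein, was at -0.07, -0.06, -0.27, -0.16, -0.16, -0.20, 0.30, -0.35, 0.19 and 0.29. These courses span less than 0.7 on the log2 scale and show no step at 5 µg/ml, and the fitted changes were -0.16 ± 0.25 and 0.32 ± 0.26 (limma adjusted p = 0.704 and 0.418). Both genes have 12 or more spots, so their values are averages of more spots than those of the 38 members with 2 spots.

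RPS25B (YLR333C) encodes a head protein used in initiation at some viral internal entry sites. It was at -0.01, -0.85, 0.19, -0.04, -0.39, -0.17, -0.03, 0.38, -0.15 and -0.43. Its lowest value came at 1 µg/ml, and its change was 0.13 ± 0.35 (limma adjusted p = 0.831). RPS17B (YDR447C), of another head protein, was at -0.20, -1.02, -1.48, -1.85, -1.64, -1.56, -0.83, -0.87, -1.24 and -1.29. This strain was thus low from 1 µg/ml on and lowest at 10 µg/ml, a course that a line does not describe, with a change of -0.17 ± 0.45 (limma adjusted p = 0.823).

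RPS14A (YCR031C), the other copy of the platform protein gene, was the member with the most positive change. It was at -1.47, -1.47, -2.27, -0.05, -0.54, -1.24, -0.06, 0.67, -1.56 and 0.35. The ratio was already low on the 0 µg/ml array, where both dyes came from a pool without drug, and it scattered at all doses. The 2 sections of the array had opposite signs at 10, 15, 25, 30 and 40 µg/ml, with 1.60 and -0.90 at 40 µg/ml. The fitted change of 1.54 ± 0.70 did not pass (limma adjusted p = 0.15). It passed as a rise without the 35 µg/ml array, at 2.26.

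Because the median moved most between 1 and 5 µg/ml, the mean of the 8 arrays from 5 µg/ml on was also set against the mean of the arrays at 0 and 1 µg/ml, a comparison chosen after seeing the data. In this limma fit 18 of the 46 strains fell and 0 rose, against 1.22% and 1.24% of all strains, with a median of -1.48. Of these 18, 12 had also fallen along the line, and 6 were called in the step alone, RPS4B, RPS16B, RPS19A and RPS24B among them. RPS4B was at -2.29 ± 0.26 in the step (SE; limma adjusted p = 0.00257) and at -1.92 ± 0.64 along the line. Together 30 strains fell in at least 1 of these fits and 16 in neither, and 13 of those 16 had a negative change along the line that did not pass.

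A line over the 8 arrays from 5 µg/ml on asked whether the ratios went on falling. There 6 of 46 fell, RPS1B, RPS9B, RPS10A, RPS16A, RPS17A and RPS21B, against 4.85% of all strains, and 0 rose, against 6.24%. Scaled to 40 µg/ml, RPS21B had a change of -3.61 ± 0.91 and RPS9B one of -2.62 ± 0.56 (SE; limma adjusted p = 0.0341 and 0.0196). RPS9B had values of -1.08, -0.76, -0.94 and -0.73 on the arrays from 5 to 20 µg/ml, and of -1.74, -1.66, -2.92 and -3.01 on the later 4.

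Days of selection rise with dose, so the 5 arrays of 4 days were set against the 4 arrays of 2 days, without the 3-day array. In limma 0 of 46 strains passed, against 0.263% of all strains that were lower at 4 days and 0.864% that were higher. At an unadjusted p below 0.05, 24 of the 46 were lower, against 453 of all 5325 strains. The median difference, 4 days minus 2 days, was -0.96. Without the 20 µg/ml array 9 strains passed as lower, RPS10A, RPS16A and RPS21B among them, where 4.04% of all strains did. With days as a covariate of the line, 3 strains fell, RPS6A, RPS9B and RPS17A, where 3.42% of all strains did. The median change of the members in that fit was -2.45, and RPS10A was at -6.29 ± 1.71. Both changes were larger than without this covariate, as was the SE of RPS10A. Not every member moved this way, as RPS10B was at -0.31 with the covariate and -1.36 without it. Among the 4-day arrays alone 3 fell, RPS6A, RPS9B and RPS10A, where 2.95% of all strains did, with a median change of -1.73.

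The comparison of A with B took the difference of both strains on each array. A shift shared by all strains of an array thus cancels, while a wider spread of the array does not. The A minus B difference was fitted against dose with limma for all 53 gene pairs with such names. Of these pairs 22 were of the small subunit, 27 of the large subunit and 4 others. For 6 of the 22 the A and B lines differed, a share near the 30.2% of all 53 pairs that did, which include these 22. The A strain fell more for RPS10, RPS6 and RPS24, and the B strain for RPS21, RPS0 and RPS1. The count was 2 without the 40 µg/ml array, 3 without the 1 or the 30 µg/ml array and 10 without the 5 µg/ml array. With arrays scaled to equal spread it was 2, and after quantile normalization 1. The share of all 53 pairs is not given for these alternatives. Across the 22 pairs the fitted changes of A and B correlated at r = 0.24 (Spearman 0.36), as a description over pairs that share the same arrays. Both copies had fallen in 5 pairs, 1 copy in 12 and neither in 5.

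**Figure D3:**
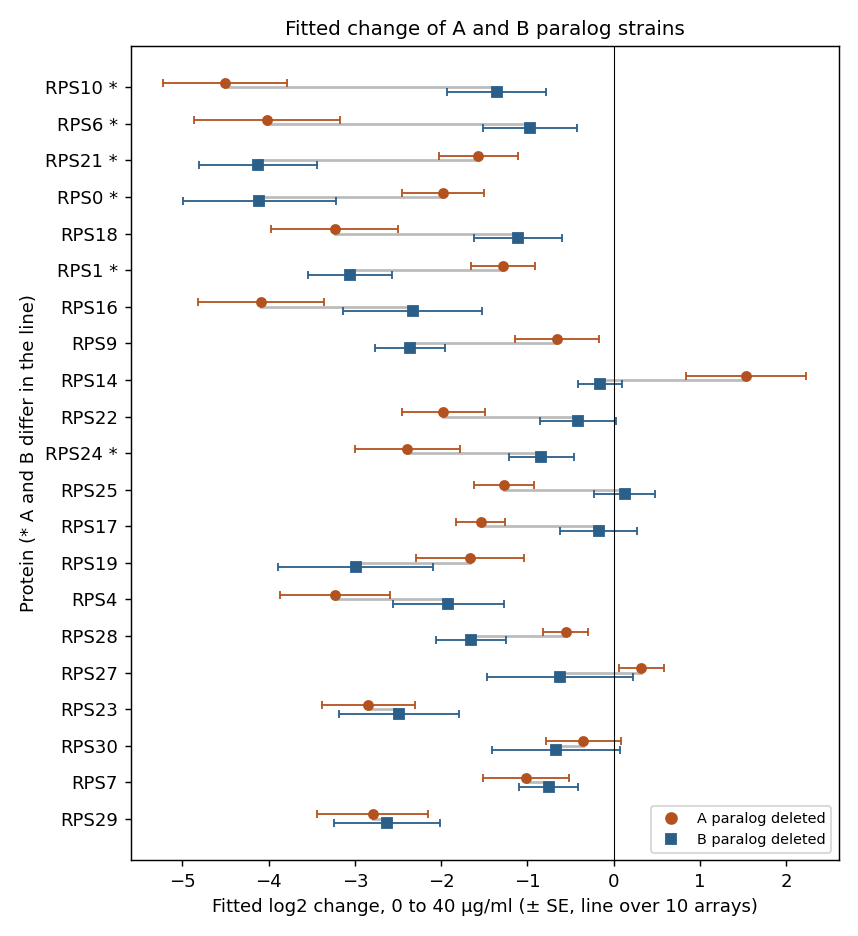
Fitted log2 change from 0 to 40 µg/ml benomyl, with its SE from the line over 10 arrays, for strains lacking the A copy (circles) or the B copy (squares) of 21 small-subunit proteins, ordered by the size of the difference. An asterisk marks the 6 pairs whose lines differ in limma, and RPS10 at the top has A at -4.51 and B at -1.36, while RPS29 at the bottom has -2.79 and -2.62.

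For RPS10 the B strain (YMR230W) was at -0.52, -0.50, -1.54, -1.40, -1.60, -2.06, -1.35, -3.08, -2.48 and -1.12, and its change of -1.36 ± 0.58 did not pass. The A strain was the lower on 8 of 9 arrays with drug, and the fitted changes differed by -3.15 ± 0.74, A minus B (SE; limma adjusted p = 0.00436 over 53 pairs). For RPS0 the A strain (YGR214W) was at 0.18, -0.01, -1.86, -1.26, -1.36, -1.44, -1.64, -1.91, -2.62 and -2.06, and the B strain was lower than it on all 9 arrays with drug. The RPS0 changes differed by 2.13 ± 0.63 (limma adjusted p = 0.019). Both sections of the array gave this difference alike, at 2.14 in the first and 2.12 in the second.

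For RPS21 the A strain (YKR057W) was at 0.33, 0.74, -1.26, -0.33, -1.09, -0.78, -0.77, -1.13, -1.19 and -1.61. The mean of the spots was within 0.6 of the B strain up to 20 µg/ml, on the log2 scale, and 1.48 to 3.44 above it from 25 µg/ml on. The sections did not share this course. In the first, A was above B by 1.00, 1.64, 1.15 and 1.55 at 5, 10, 15 and 20 µg/ml, and in the second the differences there were -0.04, -0.82, -1.46 and -0.47. The difference in fitted change was 2.56 ± 0.69 (limma adjusted p = 0.0103), with 3.52 in the first and 1.59 in the second section. For RPS18 the B strain (YML026C) was at -1.50, 0.22, -0.69, -0.44, -1.05, -0.52, -1.68, -2.07, -1.43 and -1.31. The A strain was lower on all 9 arrays with drug and higher by 1.65 without drug, where the sections gave 0.38 and 2.92, and the lines did not differ at the threshold (-2.12 ± 0.85, limma adjusted p = 0.068).

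For RPS6 the B strain (YBR181C) was at 0.61, 0.30, -1.34, -0.72, -0.64, -1.06, 0.24, -0.79, -1.14 and -1.11, above the A strain on all 10 arrays, and the changes differed by -3.05 ± 0.74 (limma adjusted p = 0.00514). The mean for RPS6B hides 2 different courses. Spots of a gene lie in 2 sections of the array, which are taken to hold its different tags, and in the first section RPS6B had a fitted change of -3.79, close to -4.05 for RPS6A there, while in the second it was 1.85. The A minus B change of RPS6 was accordingly -0.25 in the first section and -5.84 in the second. The difference between these copies thus rests on 1 tag of RPS6B, and which tag reports the strain cannot be told from the files.

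**Figure D4:**
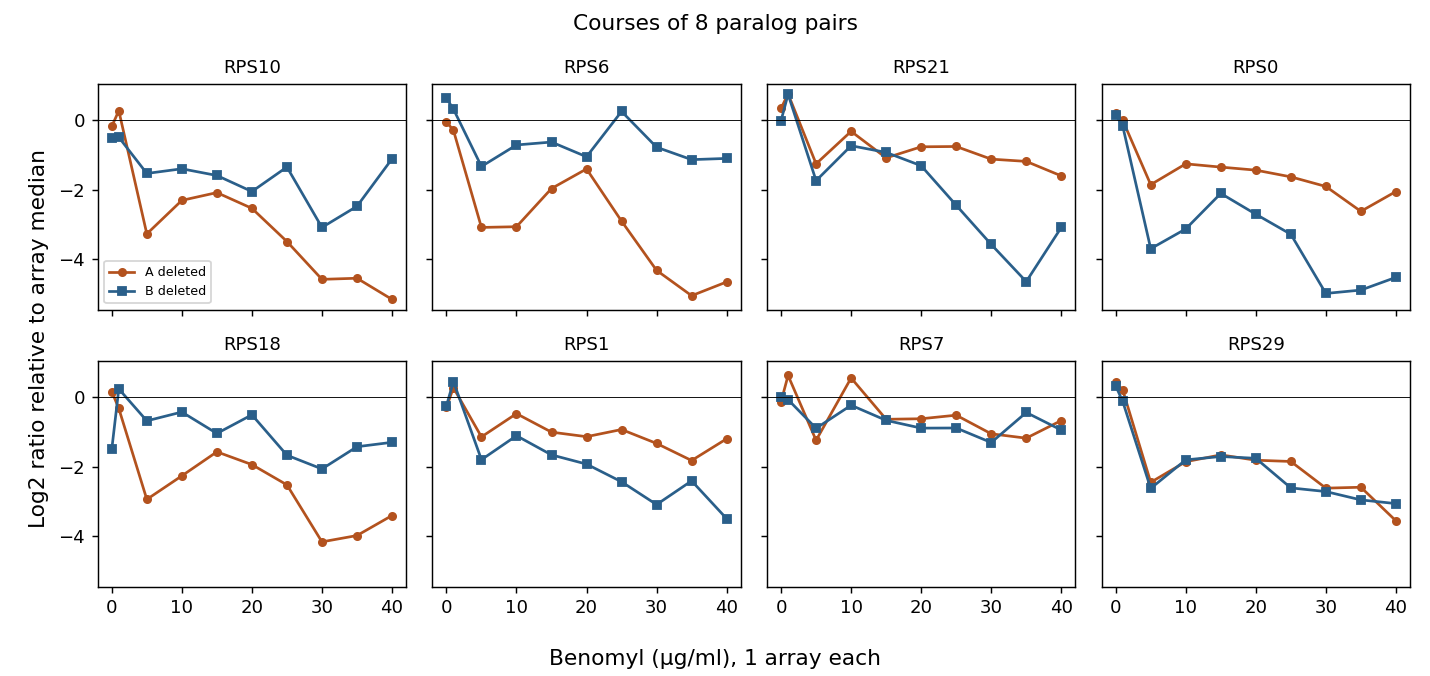
Log2 ratio relative to the array median against benomyl dose in µg/ml, 1 array per dose, for strains lacking the A copy (circles) or B copy (squares) of 8 proteins, the 6 with the largest and the 2 with the smallest difference in fitted change. The RPS0 strains lie apart from 5 µg/ml on, the RPS21 strains, as means of sections that differ, from 25 µg/ml on, and the 2 RPS29 strains stay within 0.8 of each other.

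The mean A minus B difference over the 9 arrays with drug was tested against 0 in the same way, since copies may differ at all doses without a difference in slope. It passed for 13 of 22 pairs, a share near the 56.6% of all 53 pairs that passed. The A strain was lower in 5 pairs and the B strain in 8. The 6 pairs called along the line were called here in the same direction, but both fits use these 9 arrays. Of the 6, the section means had opposite signs for RPS6, at 0.14 in the first and -4.69 in the second. They also did for RPS1, at 3.03 and -1.11, while the others of the 6 had 1 sign in both sections. RPS9A was above RPS9B on all 9 arrays with drug, with means of 0.09 and -1.51 and a difference of 1.59 ± 0.25 (SE, n = 9 arrays; limma adjusted p = 0.000599). It was below RPS9B by 0.49 without drug. RPS19B was below RPS19A on 8 of the 9, with a mean difference of 1.24 ± 0.24 (limma adjusted p = 0.000957). RPS22A was below RPS22B on all 9, at -0.98 ± 0.23 (limma adjusted p = 0.00381). For RPS28, whose protein takes part in the decay of the RPS28B mRNA, B was below A on 8 of the 9, at 0.86 ± 0.22 (limma adjusted p = 0.0052). RPS9, RPS19, RPS22 and RPS28 were picked from the called pairs after their values were seen.

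Some copies could not be told apart. The RPS29 strains RPS29A (YLR388W) and RPS29B (YDL061C) were both low from 5 µg/ml on, the first at 0.41, 0.19, -2.45, -1.86, -1.67, -1.82, -1.85, -2.62, -2.59 and -3.55. RPS29B was at 0.31, -0.13, -2.63, -1.81, -1.71, -1.76, -2.61, -2.72, -2.96 and -3.06. Their fitted changes differed by -0.17 (95% interval -1.23 to 0.89, limma) and their means with drug by 0.13 (-0.24 to 0.50). In the sections, the A minus B change was -1.36 and 1.02, so the strains differ more within each section than their averages do.

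RPS7A (YOR096W) and RPS7B (YNL096C), of a body protein, stayed closer to the median. RPS7A was at -0.14, 0.61, -1.25, 0.54, -0.65, -0.63, -0.53, -1.06, -1.19 and -0.68, with values from 1 section alone at 1 and 10 µg/ml. RPS7B was at -0.02, -0.08, -0.90, -0.24, -0.68, -0.90, -0.90, -1.31, -0.45 and -0.95. Neither change passed, at -1.01 ± 0.50 and -0.75 ± 0.34, and they differed by -0.26 (95% interval -1.43 to 0.91, limma). For RPS23 the difference was -0.35 (-1.49 to 0.78). These intervals include differences of over 2-fold.

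Fitted changes had the same sign in both sections for 43 of 46 strains and were negative in both for 40, with a median gap of 0.44 and a correlation of 0.60 across strains, a description over strains that share arrays. The gap was over 2 for RPS1B, RPS6B and RPS17A. RPS1B was at -5.29 and -0.82, RPS17A at -3.04 and -0.04, so that both calls rest mainly on the first section. The RPS1 pair turned direction between the sections, with an A minus B change of 4.72 in the first and -1.18 in the second. Used alone, the first section gave 20 falling strains and the second 16, where 8.17 and 7.22% of all strains fell. On single arrays the sections correlated less across the 46 strains, at r = -0.17 without drug, 0.42 at 5 µg/ml and 0.50 at 40 µg/ml, against -0.05, 0.48 and 0.66 over all strains.

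**Figure D5:**
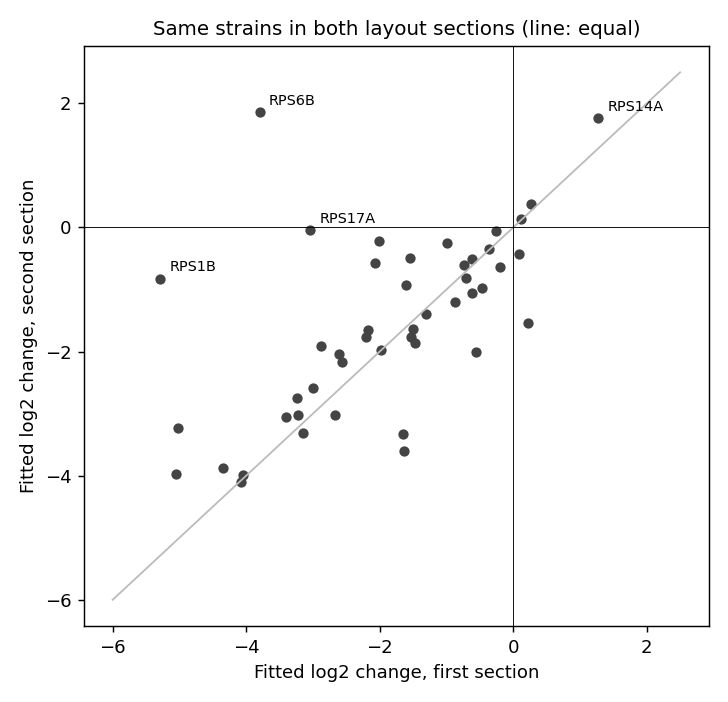
Fitted log2 change from 0 to 40 µg/ml in the first section of the array (horizontal axis) against the second (vertical axis) for the 46 small-subunit paralog strains, with the line of equality in grey. In RPS6B, RPS1B and RPS17A the sections differ by more than 2. RPS14A is positive in both, at 1.27 ± 1.25 and 1.77 ± 1.00 (SE), and passed in neither.

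Single-copy genes of the subunit, most of which a haploid cell cannot lose, serve as a background for the tags, and 8 of the 9 listed, the head protein ASC1 included, were measured. Of these 0 rose and 1 fell, ASC1, whose loss cells survive, a share near the 9.13% of all strains that fell, and the median change was -0.86. ASC1 was at 0.41, -0.01, -1.40, -0.32, -0.24, -0.43, -1.02, -2.22, -1.99 and -1.65, with a change of -1.96 ± 0.51 (limma adjusted p = 0.0209). The other 7 (RPS2, RPS3, RPS12, RPS13, RPS15, RPS20 and RPS31) had changes between -1.17 and 0.47.

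Of 17 listed factors that assemble or recycle the subunit, 5 fell and 1 rose along the line, where 9.13 and 10.3% of all strains did, with a median of -0.57. The largest falls were those of YAR1, the chaperone of RPS3, at -5.31 ± 0.80, and LTV1, which acts in export of the precursor, at -5.14 ± 0.79. YAR1 was at -0.60, 0.17, -3.19, -2.13, -1.62, -2.34, -3.67, -5.48, -5.83 and -5.51, and LTV1 at -0.33, -0.07, -2.96, -1.68, -1.53, -1.44, -3.57, -4.77, -5.54 and -5.51. Spots at a ratio of 0.02 or below enter the values of YAR1 from 30 µg/ml on and of LTV1 from 35 µg/ml on. Both had the low point at 5 µg/ml, the weaker values at 15 and 20 µg/ml and the lowest values from 30 µg/ml that RPS6A and RPS18A had, and the SD over all strains was likewise higher at 5 than at 15 and 20 µg/ml and highest from 30 µg/ml on, whose part in these courses was not tested. BUD23, a methyltransferase of 18S rRNA, FYV7 and NSR1, both of 18S rRNA processing, fell as well, with changes of -4.17 ± 0.49, -3.10 ± 0.63 and -2.66 ± 0.54. TSR3, another enzyme that modifies 18S rRNA, rose by 2.47 ± 0.60, with 3.42 at 40 µg/ml and no value above 1.11 at other doses.

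Beside the small-subunit strains, 60 large-subunit paralog strains had 38 falls and 0 rises along the line and a median of -1.88. Over all strains 9.13% fell and 10.3% rose. At an unadjusted p below 0.05 the 60 had 3 rises, against 1000 among all 5325 strains. The step at 5 µg/ml was placed where the small-subunit median had been seen to move most, so its counts do not compare the sets on equal terms. In it 5 of these 60 passed as falls, against 18 of the 46 small-subunit strains and 1.22% of all strains. The medians of the step were -1.23 for the large and -1.48 for the small subunit. Along the line from 5 µg/ml on 21 of 60 fell against 6 of 46, where 4.85% of all strains did. The large-subunit medians at 5, 20 and 40 µg/ml were -0.99, -0.71 and -1.87, against -1.70, -1.22 and -1.88 for the small subunit. No test of the difference between these sets was made.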

How the data were processed

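The authors deposited 1 log2 ratio per spot and array, per the labels using the GenePix 5.1 program on scans of a GenePix 4000B instrument. Dye order in the ratio and any normalization are not given in the sources used here. The labels' molecule field names RNA while their protocol describes genomic DNA. The median of the 18794 named spots was subtracted from every array, 18 values coded as a ratio of 1000000 were set to missing after they were seen, and spots were averaged per gene. Symbols came from the platform annotation, updated through the gene number for 5321 of 5325 genes. Lines, the step, the 4-day minus 2-day difference and A minus B differences were fitted with lmFit and eBayes of limma 3.58.1 in R 4.3.3, on genes with values on at least 8 arrays, or on all arrays where fewer entered. The line had 8 residual and 3.34 prior degrees of freedom. Adjusted p-values are those of Benjamini and Hochberg across the 5325 strains or the 53 pairs, with a threshold of 0.05. The line fit was tested on simulated data with independent noise of the same spread on all arrays, unlike these arrays. The 4-day minus 2-day fit and the mean A minus B fit were only checked to return an added shift. The step and the A minus B line were not tested in this way.

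Members, lists and tests were chosen with earlier results of these data known. Named with all values were the 5 lowest and 5 highest fitted changes, both copies of the 5 pairs with the largest and the 2 with the smallest difference, and strains whose sections had opposite changes both past 1. Alternatives covered scaling, centring, spot averaging, section, ratio floor, dose scale, days and each array left out. The strains of 1 gene pair enter the counts but are not reported here by name. No replicate arrays exist and array intensities were not used here, so the depth behind a ratio is unknown.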

Additional observations from a re-analysis of the deposited data

Results flagged for a closer look

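In 42 groups of values (20 named strains and the median of the members, on the 4 arrays of 2 days and the 5 arrays of 4 days) Dixon's ratio was above its critical value at the 95% level in 2. Chance gives about 1 in 20, and the arrays of a group differ in dose. RPS16A stood at -1.02 at 20 µg/ml against -4.15 to -3.34 on the other 4-day arrays. RPS6B stood at 0.24 at 25 µg/ml against -1.14 to -0.79 on the other 4-day arrays. This value is the mean of -3.49 in the first section and 3.96 in the second, and describes neither.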

How the results depend on the processing

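The 24 falling strains became 14 to 30 when 1 array was left out, 14 without the 1 µg/ml array, where all 14 were among the 24. They became 1 with equal spread, 1 after quantile normalization, 3 with a term for days, 3 on the 4-day arrays, 0 on the 2-day arrays in limma (9 fell at an unadjusted p below 0.05, and 0 of all strains passed), 6 over the arrays from 5 µg/ml on and 12 without the 1 and 10 µg/ml arrays together. The last 2 of these were chosen after seeing the data. The median change of -1.55 ranged from -1.87 to -1.31 over arrays left out. It was -0.82 with equal spread, -0.93 after quantile normalization, -2.45 with a term for days, -5.57 on the 2-day arrays (scaled to 40 µg/ml) and -0.82 from 5 µg/ml on. Counts of 4-day against 2-day calls were 0 to 9 over arrays left out. The 6 pairs along the line became 2 to 10 over arrays left out, 2 without the 40 µg/ml array, 3 each without the 1 or the 30 µg/ml array and 10 without the 5 µg/ml array, 2 with equal spread, 1 after quantile normalization, 9 with the first section alone, 2 with the second, 4 with spots at a ratio of 0.02 or below missing, 3 on the 4-day arrays and 0 on the 2-day arrays. The 13 pairs of the mean ranged from 10 to 14 over the scalings, spot rules, sections and drug arrays left out for which they were recomputed. Over all strains, 486 falls and 547 rises became 113 and 140 with equal spread, 144 and 111 after quantile normalization, 379 and 851 as deposited, 260 and 232 on log2(dose + 1), 182 and 157 with a term for days, 157 and 93 on the 4-day arrays, 258 and 332 from 5 µg/ml on, 65 and 66 in the step, 267 and 292 without the 1 and 10 µg/ml arrays and 308 and 314 without the 40 µg/ml array. The causes were not tested.

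Of the recomputed changes of named strains, 397 kept direction and side of the threshold, 73 lost the call, 6 gained it and 24 turned sign, none past the threshold. RPS17B turned to 0.60 with equal spread, 0.53 after quantile normalization, 0.069 as deposited, 0.082 in the first section, 0.33 without the no-drug array (-0.31 to 0.33 over arrays left out), 0.10 on the 4-day arrays and 0.70 from 5 µg/ml on. RPS14B turned to 0.085 as deposited, 0.35 with days, 0.66 on the 4-day arrays and 0.16 from 5 µg/ml on. RPS25B turned to -0.20 without the 1 µg/ml array (-0.20 to 0.39 over arrays left out), -0.031 without the 30 µg/ml array, -0.026 with days, -0.52 on the 4-day arrays, -0.23 from 5 µg/ml on and -0.21 without the 1 and 10 µg/ml arrays. RPS6B turned to 1.85 in the second section and 0.035 from 5 µg/ml on. On the 4-day arrays RPS10B was at 0.60 and RPS7B at 0.27, and on the 2-day arrays RPS27A was at -0.50, RPS18B at 1.30 and RPS7A at 0.47. Ratios as deposited shift the median of all strains from 0.09 to 0.33. No paired analysis was possible because each dose has 1 array and the labels give no replicate numbers to block on. The A minus B differences pair strains within an array, not doses.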
